A study of Mus musculus with 4 samples.

Results

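The class II myosin heavy chain genes Myh9, Myh10, Myh11, Myh14, Myh6 and Myh7 were followed as a family of 6 genes, taken by symbol from a table of 25965 genes. The family was measured by RNA sequencing of polyadenylated RNA in 4 libraries of cultured vascular smooth muscle cells, which form and contract the wall of arteries. They were released from the aortic medial layer of wild type male mice on the C57Bl/6 background, aged 8 to 14 weeks, and grown in medium with 10% fetal calf serum for 3 to 5 passages. All 4 libraries form 1 group with no uncultured or treated counterpart, so what was measured is the level of each gene in culture, how members of a library compare, and how far the libraries of the group lie apart. The labels do not say whether the libraries came from separate animals or cultures, so their spread may be partly technical.

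Class II myosins are the motors that pull on actin filaments. Each molecule holds a pair of heavy chains, which carry the motor head and the coiled tail that assembles into filaments, and each head binds an essential and a regulatory light chain. Myh9, Myh10 and Myh14 encode the nonmuscle heavy chains IIA, IIB and IIC, which serve adhesion, migration, cell division and cortical tension in most cell types. Myh11 encodes the smooth muscle heavy chain, the motor of arterial contraction and a standard marker of the differentiated lineage, whose level is known to fall when these cells are grown in serum. Myh6 and Myh7 encode the alpha and beta heavy chains of heart muscle, and Myh7 also serves slow skeletal fibres.

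The libraries held 56265771, 55521915, 40342561 and 56793195 reads on genes (libraries 1 to 4), recovered from the deposited log2 values. The scaling constants, if they make the values CPM, match smaller totals, and the recovered reads are 1.83 to 1.94 times as many as those. What was counted as 1 read is not stated, so the counting intervals given here may be too narrow. Levels are log2 scaled read counts, which do not account for gene length, and levels of different genes are compared as log2 scaled reads per kb of exon. Every pair of libraries differed by far more than counting error, with a median chi-square per gene between 12.3 (libraries 3 and 4) and 90.6 (libraries 1 and 3). All 10 smooth muscle markers were detected, at a summed log2 level from 11.84 in library 2 to 14.01 in library 4. Of the adventitial fibroblast markers 9 of 10 were detected, at summed log2 levels of 12.29, 12.08, 11.63 and 11.71 in libraries 1 to 4. Gsn, with a mean log2 level of 11.60, made up most of this sum in every library, so the sum says little about the other fibroblast markers. Detected were also 4 of 13 cardiac and skeletal muscle, 6 of 9 endothelial, 3 of 9 leukocyte and 4 of 6 mesothelial markers, at summed log2 levels of 7.49 to 9.71, 6.82 to 7.59, 4.23 to 6.06 and 6.13 to 7.12. Among cardiac and skeletal markers Tnnt2 or Acta1 had the most reads in every library. Among endothelial markers the same gene had the most reads in every library. The sums of these lists thus also say little about their other markers. In such bulk samples fewer cells of a type and less RNA per cell cannot be told apart.

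Of the 6 heavy chain genes 4 were detected, meaning that none of their 4 log2 values lay below 0, against 47.4% of all genes in the table. The detected genes were the 3 nonmuscle genes and Myh11, and the cardiac genes Myh6 and Myh7 were not detected. Within 250 bases upstream of the start, RefSeq (GRCm38.p6) gave windows for 5 of the 6 genes, and Myh11 had no entry. The windows of Myh10 and Myh6, and another window of Myh7, overlap exons of the same gene annotated in GENCODE M21. Their letters may thus belong in part to transcripts. The windows shown are those without such an overlap. They belong to Myh9 and Myh14, the highest and lowest of the detected genes, and to Myh7, a member near 0. Capitals mark matches on either strand to the letters GGGCGG of a GC box, to the CCAAT box spelled as named, to the letters TATAAA of a TATA box, and to the letters CATTCC of an MCAT element. None of these matches overlap. The windows read 5′ to 3′ on the minus strand of each gene.
Myh9 chr15:77842176-77842425: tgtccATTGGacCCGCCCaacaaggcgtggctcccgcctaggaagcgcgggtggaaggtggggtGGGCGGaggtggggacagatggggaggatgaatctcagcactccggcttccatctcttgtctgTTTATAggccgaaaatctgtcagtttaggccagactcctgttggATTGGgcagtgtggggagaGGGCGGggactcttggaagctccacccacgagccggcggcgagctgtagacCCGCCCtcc
Myh14 chr7:44670844-44671093: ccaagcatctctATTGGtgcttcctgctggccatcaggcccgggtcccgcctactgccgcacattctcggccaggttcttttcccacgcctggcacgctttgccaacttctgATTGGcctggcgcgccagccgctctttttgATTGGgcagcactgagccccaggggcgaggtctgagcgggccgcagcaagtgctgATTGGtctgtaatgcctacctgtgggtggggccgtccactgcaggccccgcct
Myh7 chr14:54994627-54994876: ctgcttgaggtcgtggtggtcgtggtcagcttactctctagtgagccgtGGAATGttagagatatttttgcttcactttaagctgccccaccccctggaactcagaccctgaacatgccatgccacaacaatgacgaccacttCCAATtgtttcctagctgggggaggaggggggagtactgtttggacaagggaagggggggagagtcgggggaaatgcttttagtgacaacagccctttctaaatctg

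The 3 nonmuscle windows all held CCAAT boxes, with 2 in Myh9, 4 in Myh14 and 3 in Myh10, and 33.8% of 32851 RefSeq promoter windows of this length held at least 1. Each Myh7 window held 1 and the Myh6 window none, and the windows of Myh10 and Myh6 overlap annotated exons. GC boxes were found 4 times in Myh9 and in no other gene with a window, against 32.7% of all windows. Myh11 could not be searched. MCAT elements stood in Myh10, Myh6 and the Myh7 window shown (12.6% of all windows). Among the genes searched the TATA box letters stood only in Myh9 (12.4%). The CArG box, the binding element of serum response factor, was searched by its consensus and found in none of the 5 genes, as in all but 1.47% of windows. The nonmuscle windows were 62.4% to 63.6% G and C, beside a median of 52.4% over all windows. The Myh6 window was 59.2% G and C, the Myh7 window shown 52% and the other Myh7 window 57.2%. In the nonmuscle windows CpG stood at 0.556 to 0.624 of the number their base composition gives. It reached 0.0938 for Myh6, 0.302 for the Myh7 window shown and 0.0989 for the other, and the median of all windows was 0.374. These matches describe letters in the reference and no binding was measured.

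**Figure D1:**
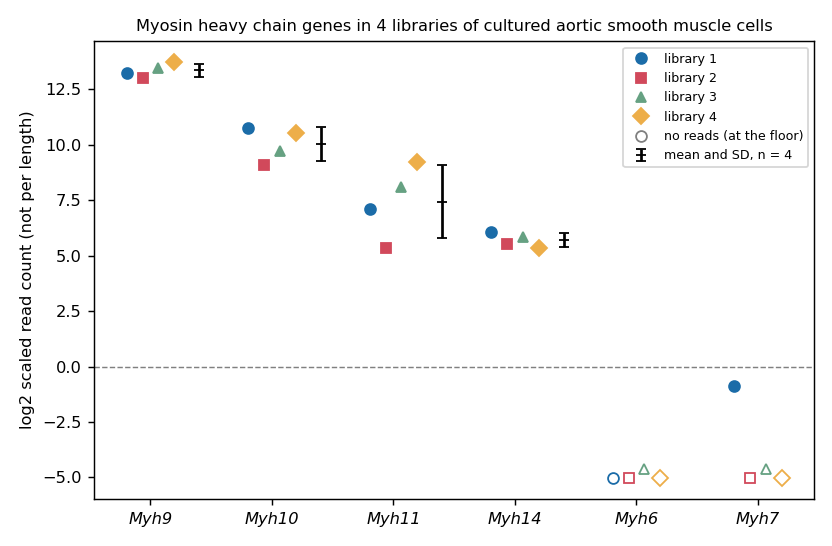
Log2 scaled read count, not divided by length, of each heavy chain gene in libraries 1 to 4, with the mean and SD (n = 4) for the 4 detected genes; open symbols are genes without reads at the floor of the table, and the dashed line is the detection threshold of 0. Myh9 lies above 13 in all libraries, Myh11 spreads from 5.33 to 9.24, and Myh7 has reads in library 1 alone.

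Myh9 (chromosome 15, 77760587 to 77842175, GRCm38) gave 276909, 242218, 249570 and 397569 reads in libraries 1 to 4, or log2 levels of 13.22, 13.03, 13.47 and 13.72. Its mean of 13.36 ± 0.30 (SD, n = 4) in reads not divided by length was exceeded by 8 of the 12306 detected genes. The heavy chain IIA gene alone took 0.436% to 0.700% of the reads on genes. Its highest library exceeded its lowest by 1.61-fold, and its SD was above 18.4% of those of the 38 detected genes within 1 log2 unit of its mean (39.5% after scaling by median-ratio size factors). Library 2 was lowest and library 4 highest.

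Myh10 (chromosome 11, 68691559 to 68816632) gave log2 levels of 10.77, 9.09, 9.73 and 10.55 from 50881, 15802, 18685 and 43974 reads, a mean of 10.04 ± 0.77 (SD, n = 4). Libraries 1 and 4 were high and libraries 2 and 3 low for this IIB gene, with a 3.20-fold range. Its SD exceeded 94.9% of those of 450 genes of like level (87.6% after median-ratio scaling).

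Myh14 (chromosome 7, 44605803 to 44670843), the IIC gene, gave 1956, 1333, 1260 and 1210 reads and log2 levels of 6.07, 5.53, 5.84 and 5.36, a mean of 5.70 ± 0.32 (SD, n = 4). It had a 1.63-fold range and an SD above 36.9% of those of 3991 genes of like level (54.3% after median-ratio scaling). As deposited it was highest in library 1, as Myh10 was, and unlike the other detected members it was lowest in library 4. After median-ratio scaling it was highest in library 3 (6.14) and lowest in library 2 (5.43).

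Myh11 (chromosome 16, 14194527 to 14291408) differed most between libraries among the detected members. It gave 4057, 1164, 5940 and 17719 reads, or log2 levels of 7.12, 5.33, 8.08 and 9.24, with a mean of 7.44 ± 1.65 (SD, n = 4). Library 4 was 15.0-fold above library 2, and the exact Poisson 95% intervals of the reads (1098 to 1233 in library 2 and 17459 to 17982 in library 4) lie far apart. The mean was 6.84 without library 4 and 8.15 without library 2. The SD exceeded 99.7% of those of 2524 detected genes within 1 log2 unit. Myh10 and Myh11 were the members with an SD above 0.5, 2 of 4 detected, against 40.5% of all detected genes. When the libraries were rescaled by median-ratio size factors, which moved the median detected gene by up to 0.32 in a library, the SD of Myh9 rose to 0.51 and passed this threshold too, and that of Myh11 to 1.81.

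The cardiac genes were near or at 0. Myh6 (chromosome 14, 54941921 to 54966927) was without reads in every library, where up to 3 reads remain possible at a count of 0, and 28.7% of all genes were without reads in the same way. Myh7 (chromosome 14, 54970688 to 54994634) had 16 reads in library 1, with an exact Poisson 95% interval of 9.15 to 26.0, and none in libraries 2, 3 and 4. All such intervals and floors cover counting error only, because the reads are not independent molecules.

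The detected members share little sequence, and the cardiac genes share more. Of the 50-base windows of the Myh11 transcripts (GENCODE M21), 0.340% occurred in another heavy chain gene, as did 0.634% of those of Myh9, 0.689% of those of Myh10 and 0% of those of Myh14. Myh6 and Myh7 shared 20.2% of the Myh6 windows and 15.6% of the Myh7 windows, so reads from one could be given to the other. In the deposited table only Gm17428, without reads in any library, overlaps the position of a member, which is Myh7. In GENCODE M21 the antisense gene 2310016G11Rik also overlaps Myh14, and its row held 2 reads in library 1 and none elsewhere. The strand setting of the counting is not given in the sources used here.

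Per length the order of the detected members was Myh9, Myh10, Myh11 and Myh14, with log2 scaled reads per kb of exon of 9.67 ± 0.30, 6.65 ± 0.77, 4.52 ± 1.65 and 2.84 ± 0.32 (SD, n = 4). The 6 pairs of these genes were compared within each library with an exact sign-flip permutation test, two-sided, and Benjamini-Hochberg adjustment over the 6 pairs. With 4 libraries there are 16 sign arrangements and p cannot fall below 0.13 (2 of 16), so no pair could pass 0.05, and the sign and size in each library carry the comparison.

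**Figure D2:**
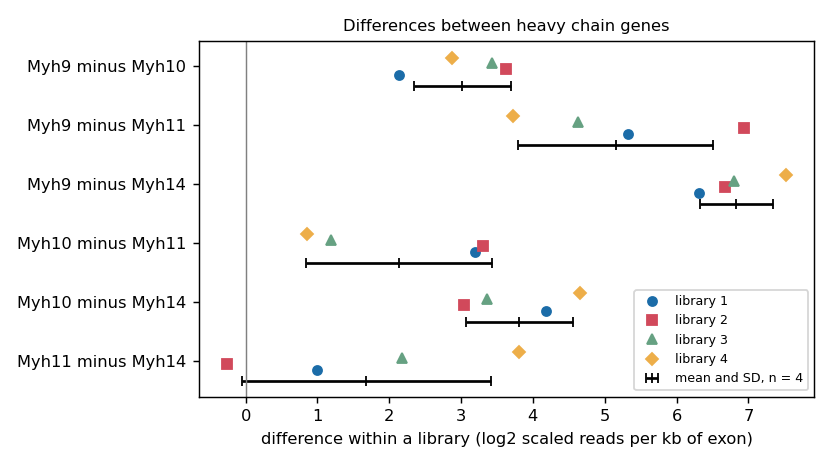
Difference between heavy chain genes within each library, in log2 scaled reads per kb of exon, with symbols for libraries 1 to 4 and the mean and SD (n = 4) below them. Myh11 minus Myh14 is the pair that crosses 0, at -0.26 in library 2.

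Myh9 exceeded Myh10 by 2.14, 3.63, 3.43 and 2.87 log2 units in libraries 1 to 4, a mean of 3.02 ± 0.67 or 8.10-fold (exact permutation p = 0.13, adjusted 0.15). Myh9 exceeded Myh11 by 5.33, 6.93, 4.63 and 3.72 log2 units, a mean of 5.15 ± 1.36 (exact permutation p = 0.13, adjusted 0.15). Without library 2 the mean was 4.56. The excess over the smooth muscle gene was 13.2-fold in library 4 and 122-fold in library 2. Myh9 exceeded Myh14 by 6.83 ± 0.51, the steadiest of the 6 differences (exact permutation p = 0.13, adjusted 0.15).

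Myh10 exceeded Myh11 by 3.19, 3.30, 1.19 and 0.85 log2 units, a mean of 2.13 ± 1.29 (exact permutation p = 0.13, adjusted 0.15). The gap was over 3 units in libraries 1 and 2 and under 1.2 units in libraries 3 and 4. Myh10 exceeded Myh14 by 3.81 ± 0.74 in 4 of 4 libraries (exact permutation p = 0.13, adjusted 0.15). Myh11 minus Myh14 was 0.99, -0.26, 2.17 and 3.81, a mean of 1.68 ± 1.73, and this neighbouring pair did not keep 1 sign (exact permutation p = 0.25, adjusted 0.25). Without library 4 the mean was 0.97, and without library 2 it was 2.32. The exon union of Myh9 is 12.9 kb against 7.43 kb for its longest transcript, and with the longest coding length in place of exons the difference of Myh9 from Myh14 was 7.71 and that from Myh11 5.93, both over 1.5 times larger as folds.

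Of the reads on the 6 genes, Myh9 held 83.0%, 93.0%, 90.6% and 86.3% in libraries 1 to 4, with a Wilson 95% interval of 82.8 to 83.1 in library 1 and narrower ones in the others. Myh10 held 15.2%, 6.07%, 6.78% and 9.55%. Myh11 held 1.22% (Wilson 95% interval 1.18 to 1.25), 0.447% (0.422 to 0.473), 2.16% (2.10 to 2.21) and 3.85% (3.79 to 3.90), an 8.61-fold range. Myh14 held 0.586%, 0.512%, 0.457% and 0.263%. The smooth muscle form was thus the smallest detected share in library 2, below Myh14, and above Myh14 in the other libraries. Per kb of exon the shares averaged 84.9 ± 5.4% for Myh9, 11.2 ± 4.8% for Myh10, 3.12 ± 2.37% for Myh11 and 0.778 ± 0.238% for Myh14 (SD, n = 4), and that of Myh11 was 2.09% without library 4 and 1.90% with the longest coding length. These shares do not depend on the scaling between libraries. Together the 6 genes took 0.593%, 0.469%, 0.683% and 0.811% of the reads on genes.

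**Figure D3:**
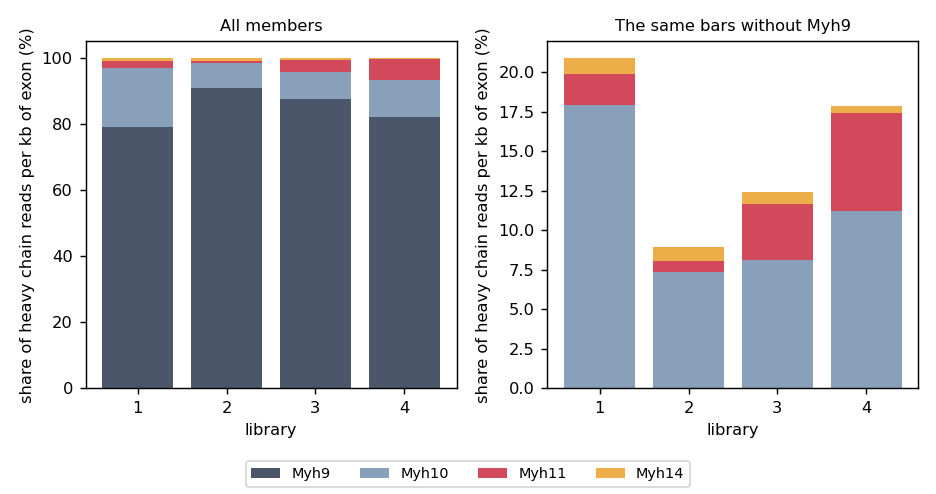
Share of each heavy chain gene in the family's reads per kb of exon (percent) in libraries 1 to 4, with all members stacked on the left and Myh9 left out on the right; Myh6 and Myh7 are too small to draw. Myh9 fills 79.1% to 91.0% of each bar, and the Myh11 segment runs from 0.744% in library 2 to 6.23% in library 4.

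The libraries followed a common pattern for Myh11 and other contractile genes. From low to high Myh11 stood in the order of libraries 2, 1, 3 and 4, an order shared by 10 of the 18 detected genes among 20 listed contractile genes and by 2.77% of all detected genes. After median-ratio scaling it was shared by 11 of these 18 and by 4.27% of detected genes. The order as deposited was seen for Acta2, the smooth muscle actin gene (10.76 to 13.16), Tagln, an actin-binding protein gene (10.54 to 12.27), Cnn1, encoding calponin (5.36 to 8.40), Smtn, encoding smoothelin (7.61 to 9.09), Lmod1, an actin filament nucleator gene (6.93 to 9.50), and Myl9, the regulatory light chain gene of smooth muscle (7.72 to 9.77). Tpm2, a tropomyosin gene, was lowest in library 1 instead (11.89 to 13.70). With Tpm2 and Acta2, the highest genes of this list were Tpm1 and Cald1. Tpm1 had the order of Myh11 (11.16 to 12.94). Cald1 was lowest in library 2 (11.17) but highest in library 1 (12.30). Of the 18 contractile genes, 15 were lowest in library 2 (13.2% of all detected genes) and 15 were highest in library 4 (10.8%). After median-ratio scaling the counts were 15 (20.2%) and 13 (17.2%). The list was chosen with results of these libraries known, so its counts are no independent evidence.

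**Figure D4:**
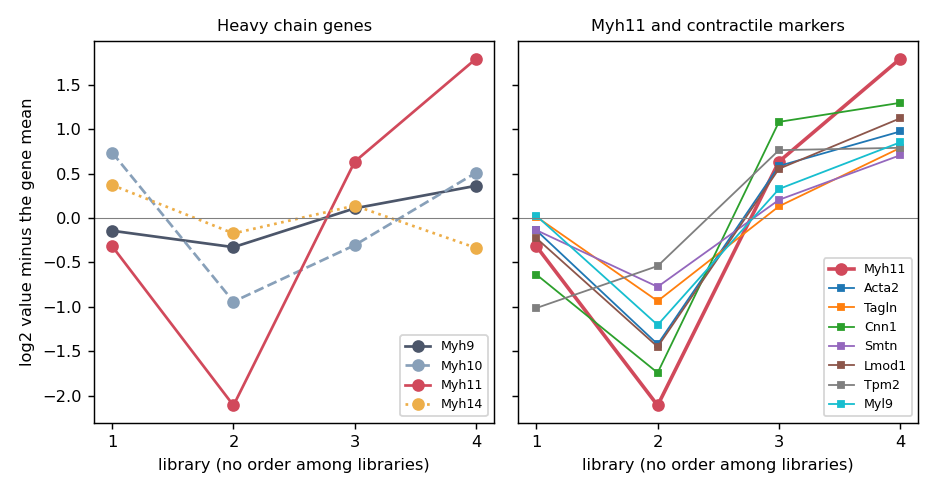
Log2 value minus the gene's mean over the 4 libraries, for the 4 detected heavy chain genes on the left and for Myh11 with 7 contractile markers on the right; lines join the values of a gene and the libraries have no order. Myh11 and 6 of the 7 markers are lowest in library 2, Myh11 has the widest swing, from -2.11 to 1.79, and Myh14 is lowest in library 4.

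The nonmuscle genes shared this pattern in part. Myh9 had the library order of Myh11 as deposited, with a swing of -0.33 to 0.36 around its mean, but after median-ratio scaling it was lowest in library 1 (12.90) and not in library 2 (12.94). Myh10 was lowest in library 2 under both scalings, and highest in library 1 as deposited (10.77) and in library 4 after scaling (10.67). Myh14 ran against Myh11 in library 4 as deposited, where it was lowest at 5.36, while after scaling library 2 was lowest at 5.43. Myh9, Myh10 and Myh11 were thus lowest in library 2 as deposited, and Myh10, Myh11 and Myh14 after scaling.

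Markers of other cells were compared between libraries 1 and 2 and libraries 3 and 4. Libraries 1 and 2, where Myh11 was lower, both lay above libraries 3 and 4 for 8 of 9 detected fibroblast, 2 of 3 leukocyte, 1 of 4 mesothelial, 1 of 4 cardiac and skeletal and 0 of 6 endothelial markers, beside 51.8% of all detected genes. The reverse held for 8 of 10 smooth muscle, 3 of 4 cardiac and skeletal, 1 of 6 endothelial and 1 of 4 mesothelial markers, and 11.4% of detected genes. It held for 0 of the fibroblast and leukocyte markers. Myh11 is among these 8 because the libraries were split by its level. The other smooth muscle markers also stand in the contractile list above, so their count is no separate evidence. All these counts are on the deposited scaling and were not repeated after median-ratio scaling. That scaling moved the median detected gene by -0.32, -0.10, 0.30 and 0.12 in libraries 1 to 4. Among fibroblast genes the gap ran from Dpt, a dermatopontin matrix gene with 4133, 3750, 110 and 111 reads, to Gsn, the gelsolin gene, with 93115, 95363, 63824 and 89970 reads. These reads are not divided by library totals, and library 3 held the fewest. The log2 SD of Gsn was 0.08, so its direction may depend on the scaling. Lyz2, the lysozyme gene of leukocytes, had 927, 441, 68 and 39 reads. Of the striated muscle genes Acta1, the skeletal actin gene, had 201, 152, 7666 and 16561 reads, Tnnt2, a cardiac troponin gene, 4711, 4545, 10403 and 4980, and Tnni3, another cardiac troponin gene, 217, 361, 148 and 148. These 6 genes were named after their values were seen, and the part of all these markers in the Myh11 result was not tested.

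By the root mean square difference of log2 values centred on each gene's mean over the 4 libraries, the genes nearest to Myh11 among 5981 with a mean log2 level of at least 5 were Actg2, the enteric smooth muscle actin gene (0.24), Mcam, a cell adhesion molecule gene of mural and endothelial cells (0.30), the collagen genes Col27a1 (0.35) and Col4a4 (0.40), and Cnn1 (0.41). The median of all genes was 1.54. Among the genes nearest to Myh10 were Magi1 (0.069), Ndrg1 (0.13), Nuak1, a kinase gene (0.14), and the taurine transporter gene Slc6a6 (0.15), against a median of 0.72. Nearest to Myh9 were Gpr153 (0.044), Dctn6 (0.048), Limk2, encoding a kinase that inactivates cofilin (0.052), Lrrc8a (0.054) and Ephb6 (0.056), and nearest to Myh14 were Ypel3, Ube2d3, Rnf11, Dynlt3 and Eif2s3y (each 0.097 to 0.098). With 4 points per gene this is a description of these libraries. In nearness to Myh11, Myh10 was number 219 (1.12), Myh9 number 278 (1.18) and Myh14 number 2420 of the 5981 genes. Seen from the other members Myh11 stood far down, as number 5928 for Myh9, 5816 for Myh10 and 5964 for Myh14. The measure keeps the size of each gene's swing, so the widely spread Myh11 lies far from steadier genes. This holds even for Myh9, which has the same library order as deposited, so these places do not show unlike patterns.

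The other sarcomeric heavy chain genes were all below detection (0 of 8). Myh1, a fast skeletal gene, had 90, 4, 20 and 6 reads, so library 1 was high, and Myh2, another fast fibre gene, had 12, 18, 0 and 5. Myh7b had 19, 21, 14 and 6 reads, Myh15 16, 7, 0 and 0, Myh8, the perinatal gene, 1, 1, 7 and 0, and Myh3, the embryonic gene, 2 reads in library 1. Myh4 and Myh13 had none in any library. Of the 14 class II heavy chain genes looked up, those detected were Myh9, Myh10, Myh11 and Myh14.

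**Figure D5:**
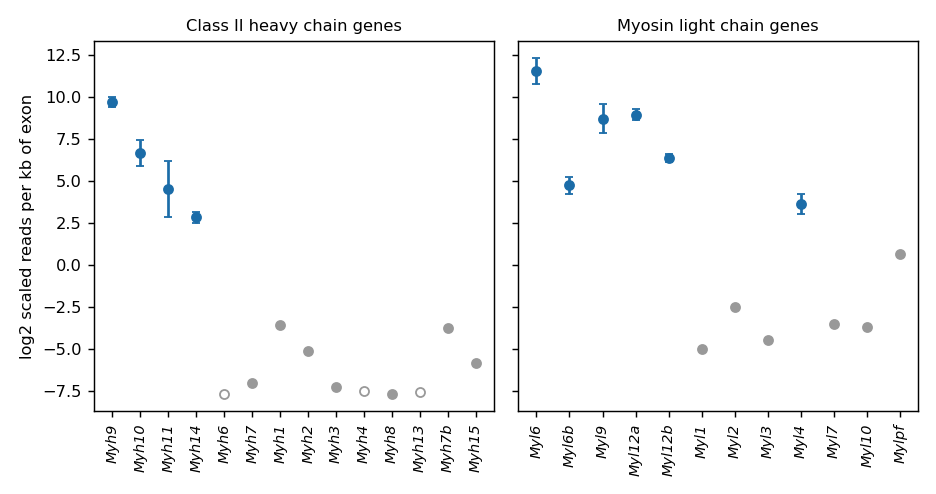
Mean log2 scaled reads per kb of exon over 4 libraries for 14 class II heavy chain genes (left) and 12 light chain genes (right); blue points are detected genes with their SD (n = 4), grey points are genes below detection, whose means hold values at the floor, and open points are genes without reads. The 4 detected heavy chain genes lie between 2.84 and 9.67, and the highest light chain gene, Myl6, at 11.52.

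Of the light chain genes 6 of 12 were detected, near the 47.4% of all genes. Per kb of exon, Myl6, the essential light chain of smooth and nonmuscle myosin, was highest at 11.52 ± 0.77, followed by the regulatory light chain genes Myl12a (8.94 ± 0.33), Myl9 (8.70 ± 0.87) and Myl12b (6.38 ± 0.25), then Myl6b (4.73 ± 0.48) and Myl4, the atrial and embryonic essential light chain gene (3.65 ± 0.59; SD, n = 4). Light chain genes of striated muscle were low, with Mylpf at 37, 84, 21 and 67 reads, Myl2 at 11, 13, 3 and 18, Myl3 at 6, 8, 0 and 0, Myl1 at 2, 0, 0 and 6, Myl7 at 1, 0, 0 and 5, and Myl10 at 5, 2, 2 and 2. Myl12a and Myl12b, regulatory light chain genes of nonmuscle myosin, were highest in library 1 as deposited, as were Myh10 and Myh14. Library 1 also had the highest median over all detected genes (5.49), so this is not particular to these genes. After median-ratio scaling Myh10 was highest in library 4 (10.67) and Myh14 in library 3 (6.14). Rescaled levels of Myl12a and Myl12b are not given here, so their highest library may depend on the scaling too.

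Genes that set myosin activity were mostly present, with 16 of 17 detected (47.4% of all genes) and a list median of 6.07 ± 0.35 (SD, n = 4), beside 0.30 over all genes of the table and 5.11 over detected genes. Per kb of exon the 4 with the highest read level stood at 7.42 ± 0.09 for Rhoa, a small GTPase gene, 5.96 ± 0.26 for Ppp1r12c, a myosin phosphatase targeting subunit gene, 5.51 ± 0.54 for Cdc42bpb, encoding a myosin-activating kinase, and 4.44 ± 0.38 for Rock2, encoding a kinase that acts on the myosin phosphatase. Dapk3, which lies above Rock2 per kb (5.41 ± 0.25), was named after its value was seen. Mylk, the light chain kinase gene of smooth muscle, gave log2 levels of 7.07, 5.84, 6.16 and 7.28, so that libraries 1 and 4 were high, as for Myh10.

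Of 12 genes for myosin folding and filament binding 6 were detected (47.4% of all genes), at a list median of 2.20 ± 0.37. Per kb of exon they were led by S100a4, encoding a calcium-binding protein that loosens IIA filaments (13.82 ± 0.26), the chaperone genes Hsp90ab1 (10.73 ± 0.26) and Hsp90aa1 (8.20 ± 0.47), and Unc45a, the general myosin chaperone gene (5.64 ± 0.32). Its muscle counterpart Unc45b had 10, 5, 13 and 20 reads and was below detection. Of 24 myosin genes outside class II 14 were detected (47.4% of all genes), at a list median of 4.08 ± 0.56. The 4 with the highest read level were Myo18a (6.61 ± 0.21 per kb of exon), Myo1c (6.82 ± 0.47), Myo9b (6.31 ± 0.23) and Myo10 (5.17 ± 0.95), per length close to or below Myh10 and all below Myh9.

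Of 16 listed transcription factor genes of smooth muscle 15 were measured and 12 detected (47.4% of all genes), at a list median of 4.80 ± 0.53. Per kb of exon the 4 with the highest read level stood at 5.48 ± 0.82 for Srf, encoding serum response factor, 4.10 ± 0.20 for Mef2d, 3.50 ± 0.64 for Tead1, which binds MCAT elements, and 3.49 ± 0.34 for Tead3. As deposited, Srf had log2 levels of 6.48, 6.17, 7.46 and 7.94, the library order of Myh11. Tead1 was highest in library 1 (8.11) and lowest in library 2 (6.61), the deposited order of Myh10.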

How the data were processed

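Log2 values of 25965 genes, with their positions, were deposited by the authors for the 4 libraries. Per the labels' protocols libraries came from 4 ug total RNA (integrity numbers 7.8 to 9) and a stranded poly(A) kit; the submitters' processing notes name Trim Galore, cutadapt, TopHat and GRCm38. For counting, neither tool, annotation nor use of strand is given in the sources used here.

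The values fit log2 of whole reads times a library constant, with genes without reads at 0.9 read. Dividing by the value of 1 read gave numbers within 0.05 of whole for 99.7% to 99.8% of values. What was counted as a read is not stated, and log2 of 0 corresponds to 22 to 30 reads. Exon lengths came from GENCODE M21 (GRCm38).

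The members and 7 gene lists (1 entry, Foxf1, not found) were chosen with earlier results of these data known. The text names all members, every other class II heavy chain and light chain gene, the 4 highest genes of other lists, 7 contractile markers and the 5 genes nearest to each detected member, leaving out numbered, Rik and RNA genes and 1 gene near Myh10 that is not reported here; Mylk, Unc45b, Dapk3 and the 6 marker genes given by reads were added after their values were seen. Alternatives were median-ratio and TMM scaling (computed in Python), a pseudocount of 1, other lengths and thresholds, and leaving out each library. A planned amino acid identity was not computed. Scripts (scipy 1.17.1, numpy 2.4.6, pandas 2.3.3 and matplotlib 3.10.9 in Python 3.11.15) were tested on simulated data.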

Additional observations from a re-analysis of the deposited data

Results flagged for a closer look

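A library that stood apart from the other 3 was found for 5 of 66 named genes with reads, and chance gives about 1 in 20. Myh7 was highest in library 1, at a log2 level of -0.86 (16 reads, none elsewhere). Myh8 was highest in library 3, at -1.65 (7 reads against 1, 1 and 0). Myh7b was lowest in library 4, at -2.29 (6 reads against 19, 21 and 14). Myl7 was highest in library 4, at -2.56 (5 reads against 1, 0 and 0). S100a4, whose product binds the IIA heavy chain, was highest in library 2, at 13.43 against 12.88 to 12.93 in the others, but after median-ratio scaling the levels were 12.61, 13.34, 13.23 and 13.00 in libraries 1 to 4 and library 2 no longer stood apart. The first 4 rest on at most 21 reads in a library.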

How the results depend on the processing

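All 6 differences between members kept their sign in the mean under 48 of 48 alternatives. For every pair but Myh11 minus Myh14 all libraries were positive, so leaving out a library could not change that sign. No alternative could reach a p under 0.05, and with 3 libraries the smallest exact p is 0.25. The number of detected members stayed at 4 under the other thresholds and without any 1 library. Per length, Myh9 was 10.47 with the longest transcript and 10.81 with the coding length, Myh10 was 7.44 with the coding length, and the share of Myh14 was 0.521% and 0.439% and that of Myh11 2.18% and 1.90%. With an SD threshold of 1, 1 member (Myh11) was variable. With 1 added before the logarithm Myh6 was 0 and Myh7 0.16. The median of the other sarcomeric genes was -2.88 with genes without reads at 3 reads. Taking means over genes gave 5.68 for the regulators of myosin, 3.39 for folding and filament binding, 2.48 for myosins outside class II and 3.85 for the transcription factors. Admitting genes with a mean of at least 0 kept 2, 1, 2 and 0 of the 5 nearest genes of Myh9, Myh10, Myh11 and Myh14. Without any 1 library the mean of Myh11 ranged from 6.84 (without library 4) to 8.15 (without library 2). Depth limits Myh6 and Myh7, where a few reads decide between 0 and a low level.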
